A study of Mus musculus with 16 samples.

Results

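The genes described here are the mouse zinc finger genes named Zfp and a number. They were chosen by that name and selected on level, with a mean of at least 1 FPKM over the 16 cell lines. FPKM scale the fragments of a gene by the length of its transcripts and by the mapped reads of the library. Of 22552 genes in the table, 366 carried such a name, Zfp42 and Zfp57 were set aside, and 287 of the remaining 364 passed, while 77 lay under the threshold and 1 of those was listed at 0 in every line. Just inside the threshold were Zfp750 at a mean of 1.00 FPKM, Zfp738 at 1.05 FPKM and Zfp658 at 1.08 FPKM, and just outside it were Zfp764 at 0.999 FPKM, Zfp324 at 0.990 FPKM and Zfp442 at 0.976 FPKM.

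RNA was sequenced from 16 pluripotent lines, 1 library per line, made from adipocyte progenitor cells (APCs) of mice that had been grown entirely from iPSCs. Those iPSCs came from embryos of a cross between 129S2/Sv females and Rosa26-M2rtTA transgenic mice, and the labels give the strain of every line as 129-M2rtTA. The 9 AN lines were nuclear transfer embryonic stem cells, and the 7 AI lines were iPSCs obtained from the same cell type by adding doxycycline. By tetraploid complementation, the study called AN1, AN9, AN15 with AN20 fully reprogrammed (AN F, 4 lines) and AN2, AN3, AN5, AN6 with AN7 partially reprogrammed (AN P, 5 lines). In the same way AI3, AI7, AI10 with GS32 were fully reprogrammed (AI F, 4 lines) and AI9, GS4 with GS9 partially reprogrammed (AI P, 3 lines). AI3, AI7, AI9 and AI10 were newly derived, whereas GS4, GS9 and GS32 had been identified in earlier work. With GS4 and GS9 in AI P and GS32 in AI F, state and derivation cannot be fully told apart in AI. AN lines were at passage 5 to 7, as were AI3, AI7, AI9, AI10 and GS9, while GS32 was at passage 13 and GS4 at passage 17. The nuclear transfer outgrowths were grown on mouse embryonic fibroblast feeders. A line is the replicate, so each p-value comes from a test that sets a group difference against the spread between lines. The F and P states are those that the study gave to the line names. The source entry of GS9 and of GS32 names GS4 instead, so results in AI rest on the titles and are also given without both lines.

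The pluripotency markers Pou5f1, Nanog, Sox2, Esrrb, Klf4, Tdgf1, Dppa5a and Utf1 were all above 0.5 FPKM in every line, with a summed level between 2403 FPKM in AI10 and 4521 FPKM in GS4. All 12 fibroblast markers were also above 0.5 FPKM in every line. Their summed level was 1051 to 1849 FPKM in AN F, 1317 to 2570 FPKM in AN P, 1324 to 2546 FPKM in AI F and 674.5 to 2214 FPKM in AI P. The depth of the lines relative to AN1, read from the steps between low FPKM values, was 0.959 to 1.26. In bulk RNA, fewer cells of a type and less RNA per cell cannot be told apart.

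A classical C2H2 zinc finger is a short fold in which a pair of cysteines and a pair of histidines hold a zinc ion, and tandem fingers read DNA bases one after the other. Many of these proteins also carry a KRAB domain, which recruits the corepressor Trim28 and, through it, the histone methyltransferase Setdb1 to silence the bound site. In pluripotent cells and early embryos, KRAB zinc finger proteins are known for silencing endogenous retroviruses and for protecting imprints.

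Translated coding transcripts of the mm9 annotation (GENCODE vM1) were found for 286 of the 287 genes. A KRAB core pattern was present in 109 genes, 166 others had at least 1 C2H2 pattern without it, 3 (Zfp36, Zfp36l1 and Zfp36l2) had CCCH fingers, and 8 had none of these patterns. A gene without the pattern can still encode a more divergent KRAB domain. The median gene held 10 C2H2 patterns and the largest 36. The following stretches of coding DNA are shown because the values of AN20 and AN9, described further on, went partly with base composition. Each codes for 1 C2H2 finger, read 5′ to 3′ on the coding strand of mm9, with the codons of the zinc-binding cysteines and histidines in capitals. Zfp51 and Zfp808 are KRAB genes, Zfp770 has no KRAB pattern, and all 3 were highest in AN20, whereas Zfp629 and Zfp653 were among the GC-rich genes.
Zfp51 (chr17:21600734-21600796, plus strand): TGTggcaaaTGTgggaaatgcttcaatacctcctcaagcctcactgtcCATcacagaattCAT
Zfp808 (chr13:62272721-62272783, plus strand): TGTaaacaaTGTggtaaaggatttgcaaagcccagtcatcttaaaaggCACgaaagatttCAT
Zfp770 (chr2:114023164-114023226, minus strand): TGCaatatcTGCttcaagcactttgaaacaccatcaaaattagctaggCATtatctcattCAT
Zfp629 (chr7:134755637-134755699, minus strand): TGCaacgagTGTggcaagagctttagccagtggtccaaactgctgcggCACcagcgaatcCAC
Zfp653 (chr9:21860457-21860519, minus strand): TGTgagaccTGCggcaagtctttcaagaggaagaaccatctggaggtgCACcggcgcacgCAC

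Of the 63 bases of each stretch, 28 were G or C in Zfp51, 23 in Zfp808, 22 in Zfp770, 36 in Zfp629 and 37 in Zfp653. The KRAB core of Zfp51 and of Zfp809, a gene known for silencing murine leukaemia proviruses, is coded by these 30 bases, with the codons of a conserved valine and methionine in capitals.
Zfp51 (chr17:21598703-21598732, plus strand): ctgtacattgatGTGATGttggagaattac
Zfp809 (chr9:22039542-22039571, plus strand): ctgtacagggatGTGATGctggaaacctac

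The family spanned a wide range of levels. The median gene had a mean of 3.82 FPKM, and 171 genes were low (under 5 FPKM, median 2.28 FPKM), 92 were middle (5 to 20 FPKM, median 8.72 FPKM) and 24 were high (20 FPKM or more, median 30.2 FPKM). The gene with the highest level was Zfp207, a spindle assembly factor, at a mean of 177.4 FPKM over the 16 lines and between 146 FPKM in AN3 and 228 FPKM in GS9. It was followed by Zfp330 (62.0 FPKM), the RNA-binding protein gene Zfp106 (58.7 FPKM), Zfp428 (45.6 FPKM), the ribosome biogenesis factor Zfp622 (44.0 FPKM), Zfp706 (35.1 FPKM), the mRNA decay factor Zfp36l1 (33.5 FPKM), the ribosome collision sensor Zfp598 (33.0 FPKM), Zfp36 (32.7 FPKM) and Zfp740 (32.6 FPKM). None of these 10 carried the KRAB pattern. KRAB genes had a median of 2.60 FPKM and C2H2 genes without the pattern one of 5.24 FPKM.

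By the mean of their log2 values, the Zfp genes were highest in AN20 and AN9. The mean of log2(FPKM + 1) over the 287 genes was 2.51 in AN1, 2.68 in AN9, 2.53 in AN15 and 2.80 in AN20. In AN P it was 2.54 in AN2, 2.46 in AN3, 2.52 in AN5, 2.44 in AN6 and 2.49 in AN7. AN9 and AN20 therefore lay above every AN P line, while AN1 and AN15 lay inside the AN P range. The mean of the 4 AN F lines was 2.63 ± 0.134 (SD) and that of the 5 AN P lines 2.49 ± 0.0406 (SD). For the 4 AI F lines it was 2.44 ± 0.0687 (SD), and for the 3 AI P lines 2.55 ± 0.0728 (SD). Among the AI lines, AI10 was lowest at 2.34 and GS4 highest at 2.61. As a share of the summed FPKM of all genes, which follows the high genes, the Zfp genes made up 0.346% in AN20 and 0.292% in AN9, where the other AN lines lay between 0.269% and 0.320%. By that share AN9 did not stand above the other lines. These are levels of genes chosen on level, and no test was made of the mean.

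**Figure D1:**
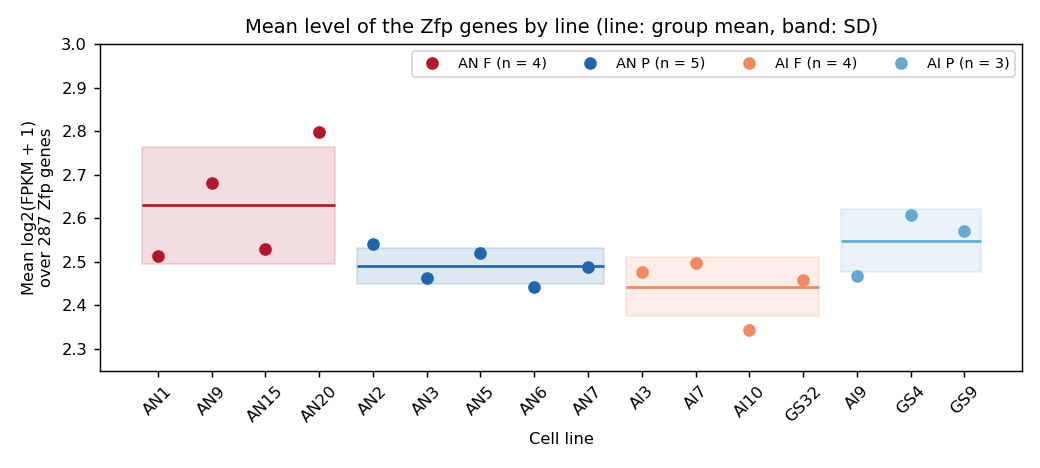
Mean of log2(FPKM + 1) over the 287 Zfp genes (y axis) in each of the 16 lines (x axis), with the mean of each group as a line and its SD as a band. AN9 at 2.68 and AN20 at 2.80 stand above the AN P lines, which lie between 2.44 and 2.54, and AI10 at 2.34 is the lowest line.

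Gene by gene, AN20 was the highest of the 9 AN lines for 157 of the 287 genes (54.7%), against 20.3% of all 13185 genes tested. AN9 was the highest for 18 genes (6.27%, against 10.1% of all genes). Both lines together were above the other 7 AN lines for 131 genes (45.6%, against 17.2%). The median deviation of the Zfp genes from the mean of the AN lines was 0.25 on the log2 scale in AN20 and 0.11 in AN9, where that of all genes was -0.03 and -0.01. At the low end, AN6 was the lowest AN line for 96 Zfp genes (33.4%, against 24.4%). Among the AI lines, AI10 was lowest for 127 genes (44.3%, against 23.6%), GS4 was highest for 98 (34.1%, against 22.2%) and GS9 was highest for 99 (34.5%, against 30.5%). The fibroblast markers moved with some of these lines. The summed fibroblast markers were lowest among AN lines in AN9 (1051 FPKM) and AN20 (1101 FPKM), lowest among AI lines in GS4 (674.5 FPKM) and GS9 (714.7 FPKM), and at 2447 FPKM in AI10. The order was not exact. AN6 had the lowest Zfp mean of the AN lines (2.44) and 1880 FPKM, while AN3, at a mean of 2.46, had 2570 FPKM. AI10 had the lowest Zfp mean of the AI lines (2.34), and GS32, at a mean of 2.46, had 2546 FPKM. The summed pluripotency markers were lowest in AN6 (2613 FPKM) among AN lines and in AI10 (2403 FPKM) among AI lines. They were highest in AN7 (3642 FPKM, against 3390 FPKM in AN20) and in GS4 (4521 FPKM). AN20 also had the largest relative depth of the AN lines (1.19) and GS4 that of all lines (1.26). The part of these values in the result was not tested.

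Most of the genes named here for AN20 were KRAB genes, and AN9 came next in each of them. Of all 157 genes highest in AN20, 79 had the KRAB pattern and 75 were C2H2 genes without it. Zfp534 was at 45.6 FPKM in AN20 and 29.9 FPKM in AN9, and at 8.40 FPKM in AN1 and 11.5 FPKM in AN15. In the AN P lines it was at 12.7, 10.4, 10.6, 6.58 and 16.3 FPKM in AN2, AN3, AN5, AN6 and AN7. The groups overlapped, since both other AN F lines fell inside the AN P range. Zfp808 was at 18.7 FPKM in AN20 and 13.7 FPKM in AN9, against 4.39 FPKM in AN1, 3.97 FPKM in AN15 and 2.92 to 5.72 FPKM in AN P. Zfp936 was at 19.8 FPKM in AN20 and 15.2 FPKM in AN9, against 4.82 FPKM in AN1, 8.13 FPKM in AN15 and 4.18 to 11.2 FPKM in AN P. Zfp600 had lower levels, at 4.86 FPKM in AN20 and 2.53 FPKM in AN9, with the other AN lines between 0.539 and 1.88 FPKM. By excess over the next AN line, Zfp655, at 17.8 FPKM in AN20 and 12.5 FPKM in AN9, Zfp518a, at 14.3 and 8.94 FPKM, and Zfp951, at 3.96 and 2.51 FPKM, followed the same order. In AN9, the genes with the largest excess over every other AN line were Zfp143, Zfp449, Zfp647, Zfp661 and Zfp72, with small steps such as 14.1 FPKM for Zfp143 against 13.3 FPKM in AN20.

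Several of these genes share sequence with close copies, so their FPKM are uncertain where reads could be split between them. Zfp534 shared 61.1% of its 51-base stretches, the length of a read, with a transcript of another gene, Zfp600 79.0%, Zfp808 29.8%, Zfp936 25.3% and Zfp932 37.6%. A stretch of 51 bases that is present without a mismatch in Zfp808 and in the neighbouring Zfp934 shows this, and it lies in an identical run of 200 bases.
Zfp808 (chr13:62272579-62272629, plus strand) and Zfp934 (chr13:62619971-62620021, minus strand): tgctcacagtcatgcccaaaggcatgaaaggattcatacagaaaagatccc

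In all, 111 Zfp genes shared at least 1 such stretch with another gene, and 26 shared over 10%. The median deviation in AN20 was 0.62 for these 26 genes and 0.14 for the 175 genes that shared none. Genes without a shared stretch, such as Zfp655, Zfp518a, Zfp654 and Zfp770, were also highest in AN20.

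The largest SD of log2(FPKM + 1) over the 16 lines was that of Zfp703 (0.68), which had a different pattern from the KRAB genes. Zfp703, a corepressor of the NET family with no C2H2 pattern in its coding transcripts, was at 15.9 FPKM in AI10 and 13.3 FPKM in AN6, and at 2.1 FPKM in GS4 and 2.18 FPKM in GS9. Its paralog Zfp503 was at 6.74 FPKM in AI10 and 0.901 FPKM in GS9. Zfp808 (0.67), Zfp534 (0.66), Zfp936 (0.56) and Zfp353 (0.54) came next, against a median of 0.21 over the Zfp genes. Zfp353 was highest outside AN, at 68.9 FPKM in GS4, with 49.2 FPKM in AN20 and 46.2 FPKM in the AN P line AN7, and 17.6% of its 51-base stretches were shared with another gene. The median SD differed little between the level classes, with 0.21 in the low, 0.22 in the middle and 0.19 in the high class.

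**Figure D2:**
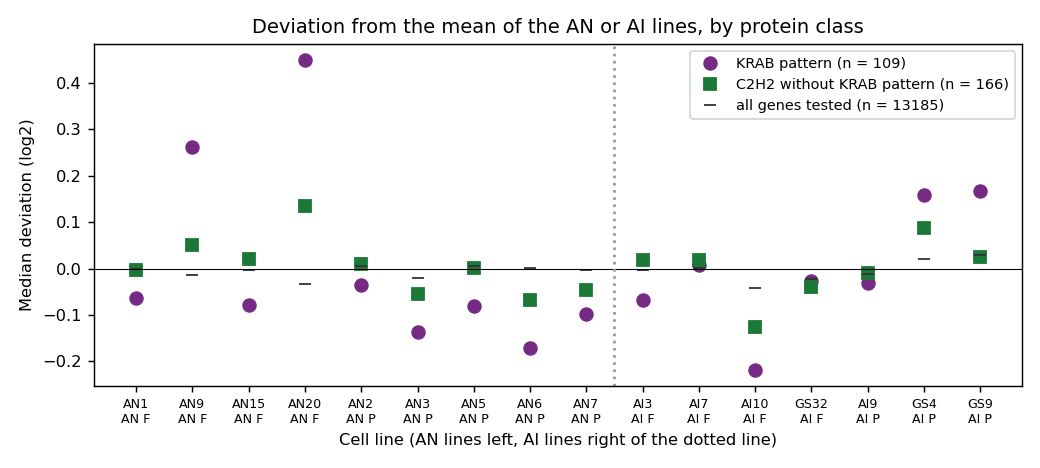
Median deviation on the log2 scale (y axis) of KRAB genes, of C2H2 genes without the KRAB pattern and of all genes tested in each line (x axis), from the mean of the 9 AN lines or of the 7 AI lines. KRAB genes were at 0.45 in AN20 and 0.26 in AN9 and at -0.22 in AI10, and C2H2 genes without the pattern were at 0.14, 0.05 and -0.13.

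KRAB genes had the larger deviations. AN20 was highest for 79 of the 109 KRAB genes (72.5%) and for 75 of the 166 C2H2 genes without the pattern (45.2%). The median deviation in AN20 was 0.04 for genes with 1 to 5 fingers, 0.21 with 6 to 10, 0.32 with 11 to 15 and 0.41 with 16 or more. GC content moved with these classes, with a median of 41.4% in the transcripts of KRAB genes, 48.5% in those of C2H2 genes without the pattern and 50.7% in those of the other tested genes.

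The classes were also set side by side within ranges of GC content. Under 40% GC, the median deviation in AN20 was 0.69 for 40 KRAB genes and 0.56 for 15 C2H2 genes without the pattern. From 40% to 45% it was 0.39 for 37 KRAB genes and 0.37 for 40 others, and from 45% to 50% it was 0.21 for 17 and 0.22 for 35. At 50% or more it was -0.09 for 15 KRAB genes and -0.18 for 76 others. With the GC and length trends of every line removed, AN20 was highest for 45.9% of the KRAB genes and 25.9% of the C2H2 genes without the pattern, with median deviations of 0.17 and 0.05. These values are descriptions, and the difference between the classes was not tested.

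In AN20 and AN9, genes outside the family followed the same order over GC content as the Zfp genes. In AN20, the median deviation of the Zfp genes was 0.68 under 40% GC (55 genes), 0.38 from 40% to 45% (77 genes), 0.21 from 45% to 50% (57 genes), -0.01 from 50% to 55% (42 genes) and -0.24 at 55% or more (55 genes). For the other tested genes it was 0.36, 0.19, 0.05, -0.10 and -0.21 in the same ranges. AN20 was thus high for AT-rich genes and low for GC-rich genes within and outside the family. In AN9 the Zfp values ran from 0.44 to -0.15 and those of the other genes from 0.25 to -0.14. In AI10 the Zfp genes were at -0.24 under 40% GC and -0.06 at 55% or more, and the other genes at -0.09 and -0.0009. In GS4 the Zfp genes were at 0.13 and 0.01 in these ranges, but at 0.20 from 45% to 50%. The other genes in GS4 were at -0.003 and 0.01 and did not fall with GC content. With the GC content and length trends of every line taken out, AN20 was the highest AN line for 33.9% of the Zfp genes and 16.3% of all genes, with a median deviation of 0.10 for the Zfp genes.

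**Figure D3:**
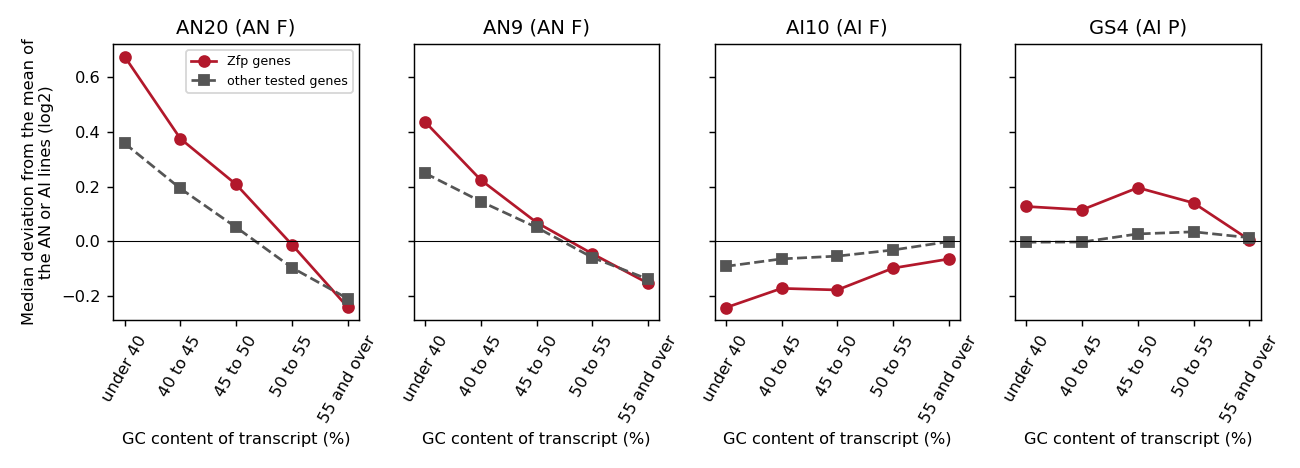
Median deviation on the log2 scale (y axis) of the Zfp genes and of the other tested genes in 5 ranges of transcript GC content (x axis), in AN20, AN9, AI10 and GS4. In AN20 both sets run from high to low, from 0.68 to -0.24 for the Zfp genes and from 0.36 to -0.21 for the other genes.

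Many Zfp genes lie in clusters, and AN20 was highest for most genes of some clusters and for none of others. Over all 13185 genes tested, it was the highest AN line for 20.3%. With gaps of at most 500000 bases, 99 Zfp genes lay in 12 runs of 5 or more. In the run of 16 genes from Zfp160 to Zfp945 (chr17:21145905-23004101), of which 15 had the KRAB pattern, AN20 was the highest AN line for 15. It was highest for all 10 genes of the run from Zfp953 to Zfp493 (chr13:67418878-67890019), for 10 of 12 in the run from Zfp871 to Zfp414 (chr17:32908181-33768724) and for 8 of 13 in that from Zfp84 to Zfp146 (chr7:30553571-30954746). It was highest for 0 of 9 from Zfp553 to Zfp646 (chr7:134376575-135029510), a run with 3 KRAB genes, and for 0 of 7 from Zfp282 to Zfp775 (chr6:47827203-48573226), a run with none. The coordinates are those of mm9.

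AN F was compared with AN P to ask which genes go with full reprogramming in nuclear transfer lines. In limma's moderated test with Benjamini-Hochberg adjustment over all 13185 genes, 0 Zfp genes passed a threshold of 0.05, and so did 0% of all genes. At an unadjusted p under 0.05, 37 Zfp genes were higher in AN F (12.9%, against 3.02% of all genes) and 3 were lower (1.05%, against 2.99%). The groups did not overlap for 7 genes that were higher (2.44%, against 0.584%) and 2 that were lower (0.697%, against 0.713%). The median log2 difference was 0.14, with 218 of 287 genes positive, where all genes had a median of -0.01 and 46.2% of them were positive. Without AN9 and AN20, 2 Zfp genes were higher (0.697%, against 0.281% of all genes) and 1 lower at an unadjusted p under 0.05, and the median was 0.04. After removal of the GC and length trend, 17 were higher (5.94%, against 2.05% of all genes), with a median of 0.05. Of the markers, 10 of 12 fibroblast (median -0.22), 4 of 4 endoderm and 5 of 5 adipocyte markers were lower in AN F. Of 8 pluripotency markers, 5 were higher (median 0.05). In these lists 0 markers had an unadjusted p under 0.05, and their part in the result was not tested.

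Zfp770, Zfp322a, Zfp599, Zfp51 and Zfp654 were the genes with the smallest p in the direction of AN F. Zfp770, a C2H2 gene without the KRAB pattern (chr2:114019197-114027205, minus strand), was at 5.51, 7.38, 5.34 and 7.67 FPKM in AN1, AN9, AN15 and AN20. In AN2, AN3, AN5, AN6 and AN7 it was at 5.11, 4.40, 4.79, 3.61 and 4.55 FPKM. The groups did not overlap, but AN1 and AN15 were close to AN2, the highest AN P line. The log2 difference was 0.44 ± 0.127 (SE), and limma across all genes gave an unadjusted p = 0.00685 and an adjusted p = 0.636. Without AN9 and AN20 the difference was 0.23 ± 0.121 (SE; limma, unadjusted p = 0.0939).

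Zfp51, a KRAB gene with 19 C2H2 patterns (chr17:21587316-21602555, plus strand), was at 2.80, 5.45, 2.77 and 6.37 FPKM in AN1, AN9, AN15 and AN20 and at 2.27, 2.09, 2.54, 2.33 and 2.13 FPKM in the AN P lines in the order above. All 4 AN F lines were above all 5 AN P lines, with AN9 and AN20 well apart from AN1 and AN15. The log2 difference was 0.64 ± 0.203 (SE; limma, adjusted p = 0.636), and an exact two-sided permutation test gave p = 0.0159, the smallest that the splits of 9 lines allow. Without AN9 and AN20 the difference was 0.21 ± 0.0855 (SE; limma, unadjusted p = 0.0411). In the same limma fit the unadjusted p was 0.0785 for Zfp322a, 0.0873 for Zfp599 and 0.0994 for Zfp654. Zfp51 was chosen for its small p in these lines, and its permutation p follows from the lack of overlap. Neither value is thus independent support.

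Zfp322a, a factor of the pluripotency network of mouse ES cells, was at 9.06, 13.1, 8.86 and 13.9 FPKM in AN F and at 8.47, 7.59, 7.31, 7.49 and 8.23 FPKM in AN P. Zfp654 was at 2.87, 5.16, 2.74 and 6.39 FPKM in AN F and at 2.60, 2.29, 2.22, 1.70 and 2.46 FPKM in AN P. In both genes the groups were apart, but AN1 and AN15 were close to the highest AN P line. Zfp599, a KRAB gene, was at 4.72, 4.92, 4.09 and 6.03 FPKM in AN F and overlapped with AN P at 2.92 to 4.23 FPKM. Zfp248, Zfp280d and Zfp955b were the other genes with AN F above AN P, and the last 2 were named after their values had been seen. In the other direction, Zfp61 was at 4.70, 4.48, 3.71 and 3.98 FPKM in AN F and at 5.23, 5.06, 5.06, 6.09 and 4.77 FPKM in AN P, and Zfp385c at 3.08, 2.87, 3.02 and 2.63 FPKM against 3.19, 3.35, 3.88, 3.71 and 3.62 FPKM. These 2 genes were below AN P in every AN F line, AN1 and AN15 included. Zfp414 (-0.27 ± 0.0884, SE), Zfp523 (-0.30 ± 0.151, SE) and Zfp653 (-0.24 ± 0.121, SE) overlapped between the groups.

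**Figure D4:**
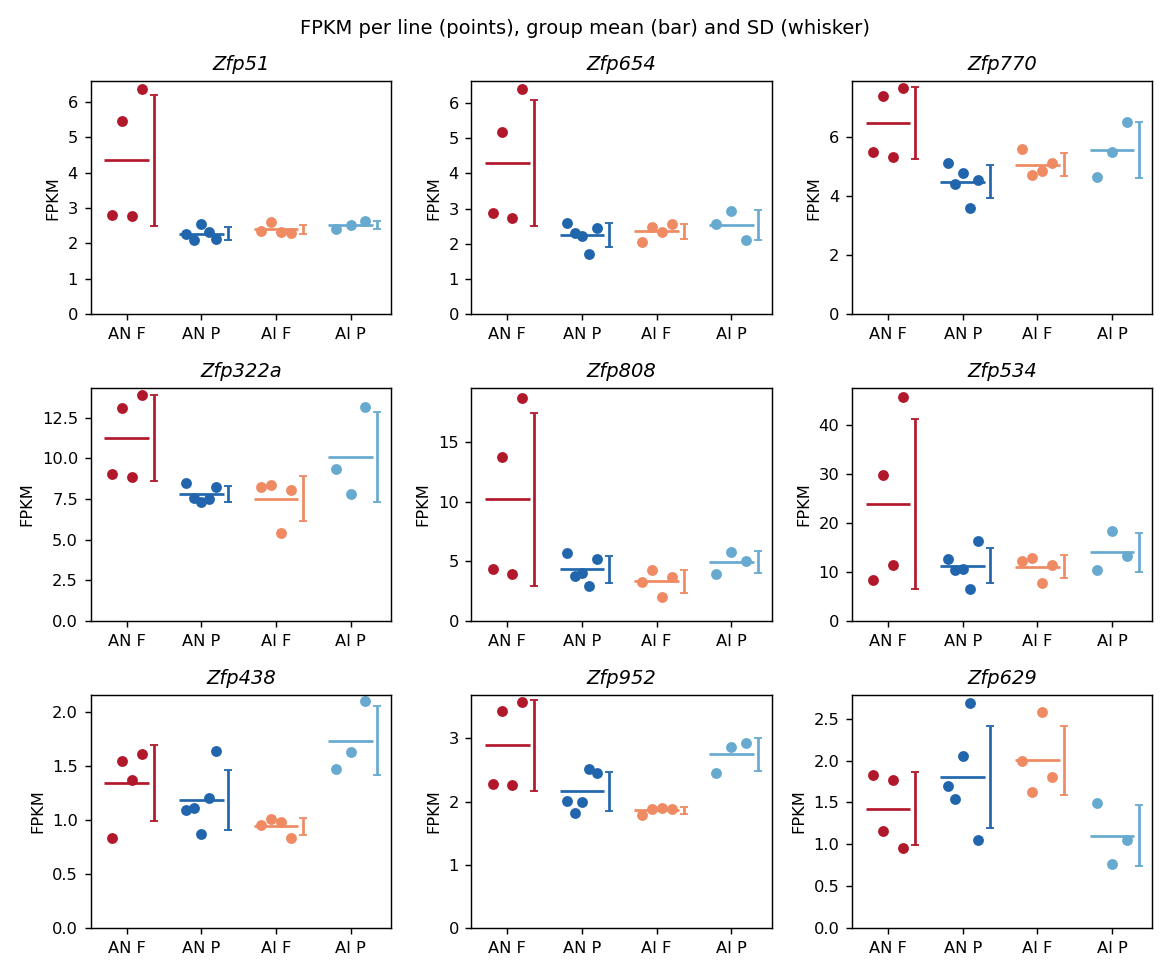
FPKM (y axis, from 0) of 9 Zfp genes in the 16 lines (points), by group (x axis), with the group mean as a bar and the SD as a whisker. In the upper 6 genes the AN F lines fall into a high pair and a low pair, as for Zfp51 at 5.45 and 6.37 FPKM against 2.77 and 2.80 FPKM, and in Zfp438 and Zfp952 every AI F line is under every AI P line.

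Genes with known roles in silencing and pluripotency did not pass the adjusted threshold either. Of 6 listed genes with roles in retroelement silencing or imprinting, 5 were among the Zfp genes described here and all 5 had a positive AN difference with no unadjusted p under 0.05. Zfp809 was at 8.47, 12.1, 10.0 and 16.5 FPKM in AN F and at 8.96, 9.23, 8.81, 6.30 and 9.48 FPKM in AN P, a log2 difference of 0.39 ± 0.180 (SE; limma, adjusted p = 0.636). Zfp932, which silences endogenous retroviruses, was at 9.56, 22.0, 9.35 and 25.4 FPKM in AN F and at 8.70 to 11.6 FPKM in AN P. Zfp568, which represses a placental Igf2 transcript, was at 34.3 FPKM in AN20 and 18 to 26.2 FPKM in the other AN lines, and Zfp445, which maintains imprints, was at 22.4 FPKM in AN20 and at 15.1 FPKM in AN1. AN20 was the highest AN line in these 4 genes. The retroelement-associated Zfp819 was highest among AN lines in the AN P line AN7, at 3.36 FPKM against 3.33 FPKM in AN20, and at 6.54 FPKM in GS4.

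Of the 6 genes with roles in pluripotency or early development, 1 (Zfp322a) was higher in AN F at an unadjusted p under 0.05. Zfp281, a transcription factor of ES cells, was at 20.3, 25.9, 20.2 and 33.7 FPKM in AN F and at 21.2, 18.1, 19.9, 16 and 21.3 FPKM in AN P, so that AN1 and AN15 were inside the AN P range. Zfp143, Zfp217, Zfp296 and Zfp462 had log2 differences of 0.11, -0.01, 0.16 and 0.12. The mRNA decay genes Zfp36, Zfp36l1 and Zfp36l2 had differences of -0.22, 0.08 and 0.08, and Zfp36 was lowest among AN lines in AN20 (22.8 FPKM) and AN9 (23.9 FPKM) and highest in AN6 (56.1 FPKM). The fat cell regulators Zfp423, Zfp467 and Zfp516 had differences of 0.20, -0.19 and -0.02, at levels of 0.950 to 8.76 FPKM in the AN lines. The sign of several of these small differences turned without AN9 and AN20, as in Zfp36 (0.13), Zfp467 (0.13), Zfp143 (-0.08), Zfp217 (0.06) and Zfp516 (0.09). Of 9 genes with roles in RNA, ribosomes or cell division, 0 had an unadjusted p under 0.05, and Zfp207, at 158 to 213 FPKM in AN F and 146 to 196 FPKM in AN P, overlapped between the groups. Of 17 tested genes of the machinery that KRAB proteins recruit, such as Trim28 and Setdb1, 14 were positive, with a median of 0.15 and 0 at an unadjusted p under 0.05.

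AI F was compared with AI P for the same question in iPSCs, and the Zfp genes lay on the other side. No Zfp gene passed an adjusted p under 0.05, and no gene of the table did (0%). At an unadjusted p under 0.05, 10 Zfp genes were higher in AI F (3.48%, against 3.47% of all genes) and 17 were lower (5.92%, against 4.3%). The groups did not overlap for 7 that were higher (2.44%, against 1.7%) and 18 that were lower (6.27%, against 3.19%). The share of higher genes was thus near that of all genes. The median log2 difference was -0.12, with 213 genes negative (74.2%), where all genes had a median of -0.04 and 55.9% of them were negative. Without GS9 and GS32, whose titles and source entries differ, 1 gene was higher (0.348%, against 0.584% of all genes) and 4 were lower (1.39%, against 0.865%), with a median of -0.10. Without AI9, the AI P line with the lowest mean, 51 were lower (17.8%, against 13.4%). After removal of the GC and length trend, 11 were lower (3.85%, against 4.29% of all genes) and 5 higher (1.75%, against 4.41%). With newly or earlier derived as a term, 4 were lower (1.39%, against 1.31%) and 1 higher (0.348%, against 0.592%). In these 2 fits the share of lower genes was thus near or under that of all genes. All 12 fibroblast markers had a positive difference in AI (F minus P), 2 of them at an unadjusted p under 0.05, with a median of 1.01 on the log2 scale. So had 4 of 4 endoderm markers and 5 of 5 adipocyte markers (1 of these 9 at an unadjusted p under 0.05), while 7 of 8 pluripotency markers were negative, with a median of -0.37 and 1 at an unadjusted p under 0.05. The part of these markers in the result was not tested.

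Zfp438, on chromosome 18, had the smallest p. It was at 0.948, 1.01, 0.983 and 0.827 FPKM in AI3, AI7, AI10 and GS32 and at 1.47, 1.63 and 2.09 FPKM in AI9, GS4 and GS9. Every AI F line was under every AI P line, and the log2 difference was -0.49 ± 0.104 (SE; limma across all genes, unadjusted p = 0.00199, adjusted p = 0.521). Without GS9 and GS32 it was -0.37 ± 0.0985 (SE).

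Zfp952, a KRAB gene, was at 1.78, 1.88, 1.90 and 1.87 FPKM in AI F and at 2.45, 2.86 and 2.93 FPKM in AI P. Zfp930 was at 4.35, 5.26, 3.68 and 4.68 FPKM against 5.29, 7.49 and 7.93 FPKM, Zfp846 at 1.18, 1.37, 0.953 and 1.55 FPKM against 1.61, 2.37 and 2.1 FPKM, and Zfp839 at 4.55, 4.68, 3.83 and 4.86 FPKM against 6.09, 6.04 and 5.68 FPKM. In all 4 genes AI F lay under AI P, by a narrow margin in Zfp930 and Zfp846. An exact permutation test cannot go below p = 0.0571 with 35 splits of the AI lines, which is the value of all 25 genes without overlap.

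In the direction of AI F, Zfp629 was at 1.99, 1.63, 2.59 and 1.81 FPKM against 1.49, 0.769 and 1.05 FPKM in AI P, with a log2 difference of 0.52 ± 0.158 (SE). Zfp608 (0.50 ± 0.169, SE), Zfp498 (0.48 ± 0.177, SE), Zfp282 (0.33 ± 0.119, SE) and Zfp746 (0.32 ± 0.114, SE) were also without overlap, and none of these 5 carried the KRAB pattern. Zfp36l2 was at 30.8, 29.5, 39.8 and 29.7 FPKM in AI F and at 27.8, 22.7 and 25.9 FPKM in AI P. At an unadjusted p under 0.05, 9 of the 109 KRAB genes had lower values in AI F and 0 had higher ones, against 4.3% and 3.47% of all genes.

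Fully reprogrammed AN and AI lines were compared to ask whether nuclear transfer lines and iPSCs differ. In AN F against AI F, 52 Zfp genes were higher at an unadjusted p under 0.05 (18.1%, against 5.31% of all genes) and 3 were lower (1.05%, against 4.13%), with 0 past an adjusted p under 0.05, which 1 gene of the table passed (0.00758%). The median log2 difference was 0.18, against 0.02 for all genes. The count of higher genes fell to 12 without AN9 (4.18%, against 1.56% of all genes), 13 without AI10 (4.53%, against 2.31%) and 16 without AN20 (5.57%, against 2.08%). It was 89 without AN1 (31.0%, against 9.69%) and 79 without AN15 (27.5%, against 8.15%). At an unadjusted p under 0.05, 3 of 12 fibroblast and 3 of 5 adipocyte markers were lower in AN F and 2 of 8 pluripotency markers were higher, the other 6 being positive as well. Their part in the result was not tested. Zfp248 was at 1.73, 1.94, 1.85 and 1.96 FPKM in AN F and at 1.19, 1.34, 0.804 and 1.37 FPKM in AI F, with no overlap and all 4 AN F lines close together (0.41 ± 0.102, SE; limma, adjusted p = 0.496). Zfp2 (0.63 ± 0.171, SE) and Zfp800 (0.46 ± 0.135, SE) were also without overlap, with AN9 and AN20 highest. Zfp703 (-0.81 ± 0.332, SE), Zfp608 (-0.44 ± 0.179, SE) and Zfp503 (-0.60 ± 0.264, SE) were the 3 lower genes, and all 3 were highest in AI10.

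In AN P against AI P, 5 Zfp genes were higher (1.74%, against 3.21%) and 9 were lower (3.14%, against 2.48%) at an unadjusted p under 0.05, and 0 passed an adjusted p under 0.05, against 0.0152% of all genes. The median log2 difference was -0.08. Zfp746 was at 7.59, 7.25, 7.82, 7.60 and 5.85 FPKM in AN P and at 5.58, 5.10 and 5.13 FPKM in AI P, without overlap (0.39 ± 0.109, SE; limma, adjusted p = 0.719). Zfp651 (0.53 ± 0.158, SE), Zfp593 (0.35 ± 0.121, SE), Zfp951 (-0.39 ± 0.151, SE), Zfp438 (-0.33 ± 0.127, SE) and Zfp420 (-0.27 ± 0.0999, SE) were the next in each direction.

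The F against P differences of AN and AI were set against each other as an interaction term over all 16 lines. The term, AI minus AN, was negative at an unadjusted p under 0.05 for 82 Zfp genes (28.6%, against 8.34% of all genes) and positive for 9 (3.14%, against 8.3%), and 0 passed an adjusted p under 0.05 (0% of all genes). The markers moved with the term. It was positive at an unadjusted p under 0.05 for 7 of 12 fibroblast markers (median 1.29), 3 of 4 endoderm markers and 2 of 5 adipocyte markers. It was negative for 7 of 8 pluripotency markers (median -0.38), 1 of them at an unadjusted p under 0.05. Their part in the result was not tested. Of the 287 genes, 181 were higher in AN F and lower in AI F by their mean log2 value, 37 the reverse, 37 higher in both and 32 lower in both. Zfp952 had a term of -0.67 ± 0.173 (SE; limma, adjusted p = 0.290). It was at 2.28, 3.43, 2.27 and 3.58 FPKM in AN F and 1.82 to 2.52 FPKM in AN P. Zfp599 (-0.80 ± 0.229, SE) and Zfp239 (-0.69 ± 0.204, SE) followed. In the positive direction were Zfp503 (1.20 ± 0.390, SE), Zfp651 (0.74 ± 0.234, SE) and Zfp498 (0.69 ± 0.207, SE). Among the 109 KRAB genes, 43 had a negative and 0 a positive term at an unadjusted p under 0.05. No Zfp gene was without overlap in opposite directions in AN and AI.

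**Figure D5:**
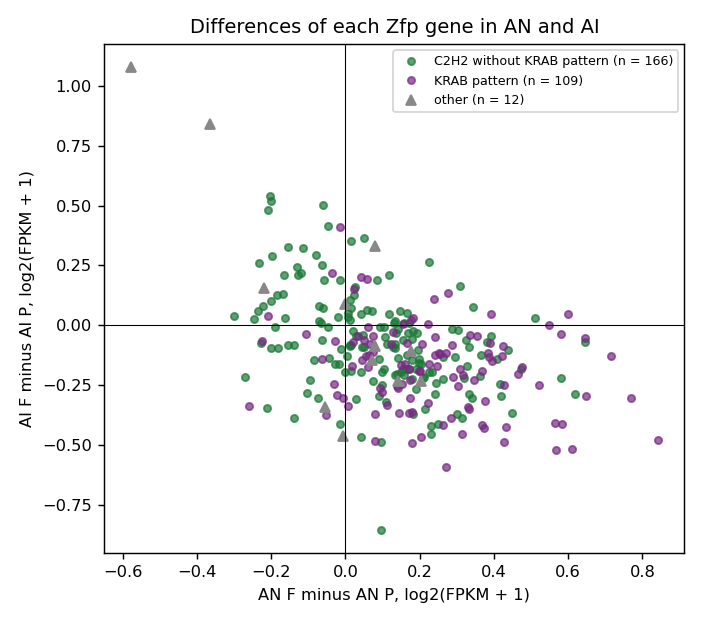
Log2 difference of AN F minus AN P (x axis) and of AI F minus AI P (y axis) for each of the 287 Zfp genes, by protein class. The lower right part, higher in AN F and lower in AI F, holds 181 genes, and the 2 points at the upper left are Zfp703 and Zfp503.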

How the data were processed

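RNA-seq of 16 lines was analysed. The authors mapped 51-base single-end reads to mm9 with TopHat 2.1.0 and calculated the deposited FPKM values with Cufflinks 2.2.1; the submitters' processing notes also list HTSeq. The number of reads behind each value was not analysed here, and relative depth was read from the steps of low values. F and P states were taken from the study by line name.

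Values were transformed to log2(FPKM + 1), so folds of low genes are understated. The 13185 genes with a mean of at least 0.5 FPKM were fitted in limma 3.58.1 (R 4.3.3) with a mean-variance trend, using the lines of the groups compared, or all 16 for the interaction, and p-values were adjusted over all genes by the Benjamini-Hochberg method. The test was tried on simulated data with independent noise for each gene. Such data cannot show how it behaves where a line shifts many genes together. Single genes were also compared by exact permutation (Python 3.11.15, scipy 1.17.1). A deviation is a line's log2 value minus the mean of the AN or AI lines.

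Genes and lists were chosen with earlier results of these data known. Named genes are the 10 with the highest level, the genes of smallest p in either direction (5 in AN and AI, 3 in the other comparisons), the 5 with the largest SD, the 5 with the largest excess in AN9 and in AN20, the neighbours of the threshold and the listed genes with known roles. Positions, GC content, 51-base stretches and protein patterns were computed from mm9 and GENCODE vM1, and 286 genes matched. The KRAB pattern was searched in translated coding transcripts. Alternatives were a pseudocount of 0.1, quantile normalization, no filter or a minimum of 5 FPKM, all 16 lines in 1 fit, a fit without the trend or with a robust prior, scaling by median ratios, removal of GC and length trends, passage or derivation as a term, and leaving out lines. Derivation as a term separates the earlier lines GS4, GS9 and GS32 from the newly derived AI lines. Leaving out AN9 and AN20 together, and setting Zfp genes beside other genes of the same GC range, were chosen after seeing the data.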

Additional observations from a re-analysis of the deposited data

Results flagged for a closer look

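In 210 groups of 4 or 5 lines, the 69 named Zfp genes and the mean over all Zfp genes in AN F, AN P and AI F, 11 held a line whose gap to its nearest neighbour was large for the range of the group. Chance flags about 1 in 20 groups, which is 10.5 here. In AI F the separate line was AI10 in all 4 cases. Zfp217 was at 5.98 FPKM there, against 9.93 to 10.4 FPKM in the other AI F lines, Zfp322a at 5.44 FPKM against 8.05 to 8.37 FPKM, and Zfp420 at 0.588 FPKM against 1.32 to 1.36 FPKM. The mRNA decay gene Zfp36l2 was at 39.8 FPKM in AI10, above the 29.5 to 30.8 FPKM of the others.

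In AN P, AN6 stood apart in Zfp106, at 40.3 FPKM against 54.7 to 58.2 FPKM, and in Zfp809, at 6.30 FPKM against 8.81 to 9.48 FPKM. AN7 did so in Zfp746, at 5.85 FPKM against 7.25 to 7.82 FPKM. In AN F, Zfp346 was at 6.75 FPKM in AN1 against 8 to 8.08 FPKM, Zfp740 at 30.8 FPKM in AN15 against 34.9 to 35.3 FPKM, Zfp830 at 11.6 FPKM in AN20 against 12.8 to 13.1 FPKM, and Zfp839 at 5.66 FPKM in AN15 against 4.21 to 4.35 FPKM. AN9 and AN20 together are not found this way, since each has the other as a neighbour.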

How the results depend on the processing

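Depth is known only relative to AN1, and a gene near 1 FPKM rests on few reads, which limits small differences. At an adjusted p under 0.05, 0 Zfp genes were called in each comparison under each alternative, except the interaction, where leaving out 1 line gave 0 to 10 (10 without AI9). Counts at an unadjusted p under 0.05 depended on the lines, and the shares of all genes moved as well. In AN F against AN P, 3.02% of all genes were higher, but 7.81% without AN1, 7.03% without AN15 and 0.637% without AN9 or AN20. In AI F against AI P, 4.3% were lower, but 13.4% without AI9, 2.04% without AI10 and 1.69% without GS9. It was 4.29% with GC and length trends removed and 1.31% with derivation as a term. In the same comparison 3.47% were higher, 4.41% with these trends removed and 0.592% with derivation as a term. In AN F against AI F, 5.31% were higher, but 9.69% without AN1, 8.15% without AN15, 6.22% with all lines and 1.56% without AN9. In AN F against AN P, 37 higher genes became 8 to 85 when 1 line was left out (85 without AN1, 67 without AN15, 24 without AN2, 18 without AN3, 21 without AN6, 23 without AN7, 9 without AN20 and 8 without AN9), 2 without AN9 and AN20, 17 with GC and length trends removed and 11 at a minimum of 5 FPKM. The 3 lower genes became 2 to 9 (9 without AN1, 7 without AN15, 5 without AN7), 1 without AN9 and AN20 and 1 at 5 FPKM. The median of 0.14 was 0.0382 without AN9 and AN20, where 11 of 35 single-gene differences changed sign: Zfp932 to -0.0532, Zfp36 to 0.128, Zfp467 to 0.134, Zfp143 to -0.0783, Zfp445 to -0.0414, Zfp217 to 0.0597, Zfp516 to 0.0924, Zfp326 to -0.0485, Zfp593 to -0.0101, Zfp598 to 0.0322 and Zfp622 to 0.0169. Leaving out both was chosen after seeing the data. Leaving out 1 line moved Zfp217 from -0.0612 to 0.0555, Zfp326 from -0.0201 to 0.0678, Zfp462 from -0.0293 to 0.206, Zfp516 from -0.0815 to 0.0368, Zfp593 from -0.0296 to 0.0633 and Zfp819 from -0.0139 to 0.247. Zfp326 was -0.000992 after quantile normalization and -0.0910 with the trends removed, where Zfp598 was 0.0272. In AI F against AI P, 10 higher genes became 2 to 14 (2 without AI3, AI10 or GS9, 3 without GS4, 5 without GS32), 5 at 5 FPKM, 5 with the trends removed, and 1 each without GS9 and GS32 and with derivation as a term. The 17 lower genes became 5 to 51 (51 without AI9, 10 without AI3, 6 without AI10, 7 without GS4 and 5 without GS9), 5 at 5 FPKM, 11 with the trends removed, 30 with all 16 lines in the fit, and 4 each without GS9 and GS32 and with derivation as a term. In AN F against AI F, 52 higher genes became 12 to 89 (12 without AN9, 16 without AN20, 13 without AI10, 26 without AI3, 79 without AN15, 89 without AN1), 13 at 5 FPKM, 80 with all lines, 20 with passage as a term and 34 without GS32, and 3 lower genes became 0 to 8 (0 without AN9 or AN20, 1 without AI3 or AI10, 8 without AN1), and 1 with no filter, with passage as a term and without GS32. With the trends removed, the median interaction was -0.17, AN20 was highest for 33.9% and both AN9 and AN20 were above the other AN lines for 25.2%, with a median deviation of 0.10 in AN20. A threshold of 5 FPKM left 116 genes. Fewer genes or lines enter where a minimum or a left-out line is named, and otherwise the cause was not tested. Of 1239 alternatives for 63 single-gene differences, 27 changed sign, in 13 genes and all in AN F against AN P, and 4 passed an adjusted p under 0.05, all in the interaction without AI9. No paired analysis was possible because the line names carry no number that pairs lines across groups.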

Other observations

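Other zinc finger families had smaller median deviations in AN20 than the numbered Zfp genes. The median deviation in AN20 was 0.07 for 34 Zbtb genes, 0.15 for 15 Zscan genes, 0.00457 for 6 Zkscan genes, 0.00926 for 14 Zc3h genes and 0.07 for 14 Klf genes, where it was 0.25 for the Zfp genes. The median log2 difference between AN F and AN P was 0.05, 0.10, 0.06, 0.07 and 0.11 in the same order. At an unadjusted p under 0.05 in AN, 2 Zbtb genes were higher and 1 was lower, 1 Klf gene was lower, and 0 genes of the other families were called. Of all genes, 3.02% were higher and 2.99% lower, and families of 6 to 34 genes are too small to set such counts against these shares.

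The Zscan genes, many of which carry a SCAN domain beside their fingers, had a median log2 difference of -0.22 in AI (F minus P), with 13 of 15 below 0. At an unadjusted p under 0.05, 1 of the 15 Zscan genes was lower in AI F, where 4.3% of all genes were. None of the family differences was tested against the Zfp genes.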
